A study of Sparus aurata with 9 samples.

Results

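The comparison set out here was made between primary myoblasts of gilthead sea bream (Sparus aurata) that received amino acids after a period of restriction (AA) and myoblasts that were kept without them (CTR), over every gene of the deposited count table. It used 6 of the 9 messenger RNA libraries of the study, chosen by their labels alone, with 3 AA libraries and 3 CTR libraries. The other 3 libraries came from Igf-1 cells, which received an insulin-like growth factor. They entered the filter on low counts, the scaling and the common estimate of the spread between libraries, but not the contrast itself. Myoblasts are the muscle precursor cells that divide and then fuse into fibres, and here they were taken from the fast-twitch epaxial muscle of fingerlings and grown on a coat of poly-L-lysine and laminin until day 8, when the first fusions were seen. The cultures therefore held dividing, differentiating and fusing cells together.

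On day 8 both groups spent 12 h in a medium that held Earle's balanced salts, glucose, vitamins, buffer and antibiotics but no amino acids. The AA cells were then moved for 24 h to DMEM with the same buffer and antibiotics, which supplied amino acids and no serum. The CTR cells stayed in the amino acid-free medium for those 24 h, which made 36 h of restriction in all. Neither medium of those 24 h held serum or added Igf-1. DMEM and the salt solution differ in more than their amino acids, so the contribution of the amino acids and that of the other components cannot be told apart in these data. The work rested on 3 independent cultures, but which library came from which culture is not given in the sources used here, and the p-values measure the spread between libraries.

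Amino acids reach the growth machinery of a cell mainly through mTORC1, a kinase complex that assembles on the lysosome through the Rag GTPases and promotes protein and lipid synthesis while it holds back autophagy. When amino acids run out, uncharged transfer RNAs activate the kinase Gcn2, and the transcription factor Atf4 then raises genes for amino acid synthesis, uptake and transfer RNA charging. In muscle, loss of nutrients also raises, through FoxO factors, the ubiquitin ligases that direct contractile proteins to the proteasome, and fasted fish resume myoblast division and sarcomere assembly when they are fed again.

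The count tables added up to between 48725967 and 67149607 in the AA libraries and between 51598127 and 61499074 in the CTR libraries, with an inferred 4 or so counts for each sequenced pair. Of 27159 genes, 17687 had enough counts to be tested and 13586 of these carried a symbol. Symbols are spelled as in the deposited table, where capitals and lower case can mark separate genes, and an identifier is added where several genes share a symbol. Values per library are normalized counts, given for replicates 1, 2 and 3, which are scaled for library size but not for gene length, so they compare libraries and not genes. On the first principal component of the 6 libraries, which held 40.0% of the variance, AA and CTR separated, and on the second, with 29.4%, AA replicate 2 and CTR replicate 3 stood apart from their groups. Without that pair of libraries, 874 genes were higher and 653 lower by the criteria given next.

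A gene passed when its p-value, adjusted over the tested genes by the method of Benjamini and Hochberg, was at most 0.05, and it was called when its log2 fold change (AA minus CTR) was also at least 1 in size, which are the limits of the study's Methods. In response to AA, 855 genes (4.83% of those tested) were called higher and 670 (3.79%) were called lower. When no fold limit was set, 1319 genes (7.46%) passed as higher and 1369 (7.74%) as lower, and these are the shares against which each gene list is read. The median log2 fold change over all genes was −0.01. Among the genes called, 850 of the 855 higher genes and 664 of the 670 lower genes had AA and CTR libraries that did not overlap. Over all genes tested, 14.6% had every AA library above every CTR library, and 16% had every AA library below. Larger changes were more often upward, since 315 of the genes called higher and 133 of those called lower changed by at least 2 on the log2 scale, and 95 and 58 by at least 3. The 855 genes called higher took 7.75% of all counts in AA libraries on average and 2.48% in CTR libraries, while the 670 called lower took 2.09% in AA libraries and 4.75% in CTR libraries. In a mixed culture, a lower level can mean fewer cells of a type or less RNA per cell, which cannot be told apart here.

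**Figure D1:**
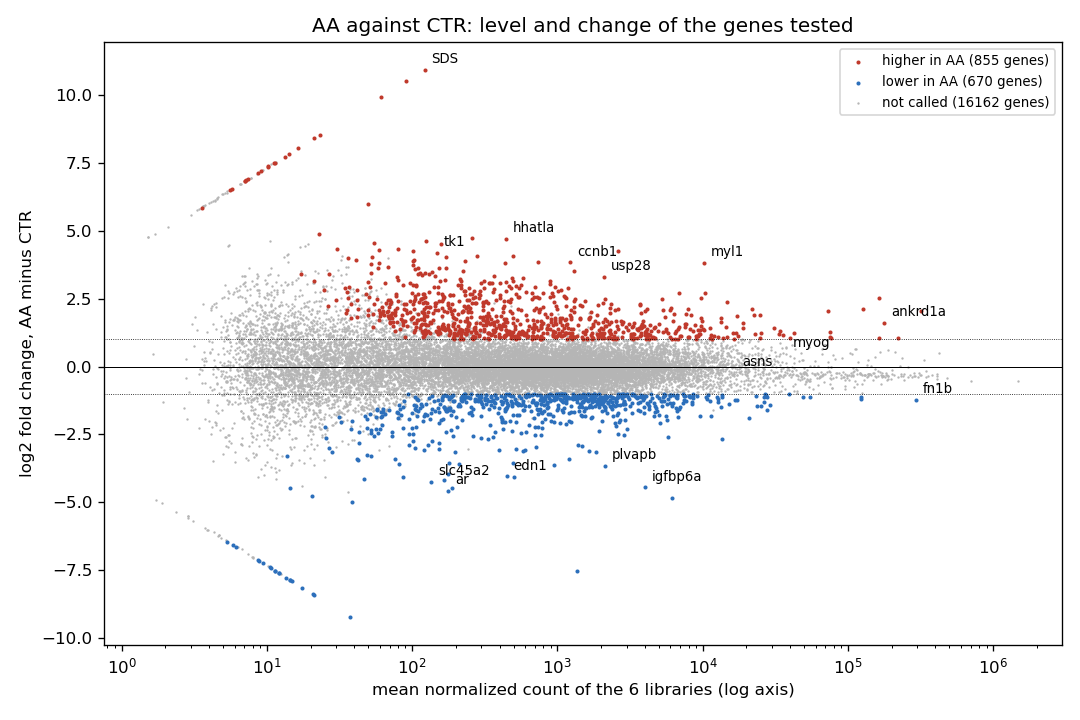
Mean normalized count of the 6 libraries (horizontal, log axis) against the log2 fold change, AA minus CTR (vertical), for the 17687 genes tested. Red points are the 855 genes called higher in AA, blue points the 670 called lower, grey points the rest, dotted lines mark a log2 fold change of 1 and −1, and the slanting rows at the left are genes at 0 in one group, whose fitted change has no upper limit.

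**Figure D2:**
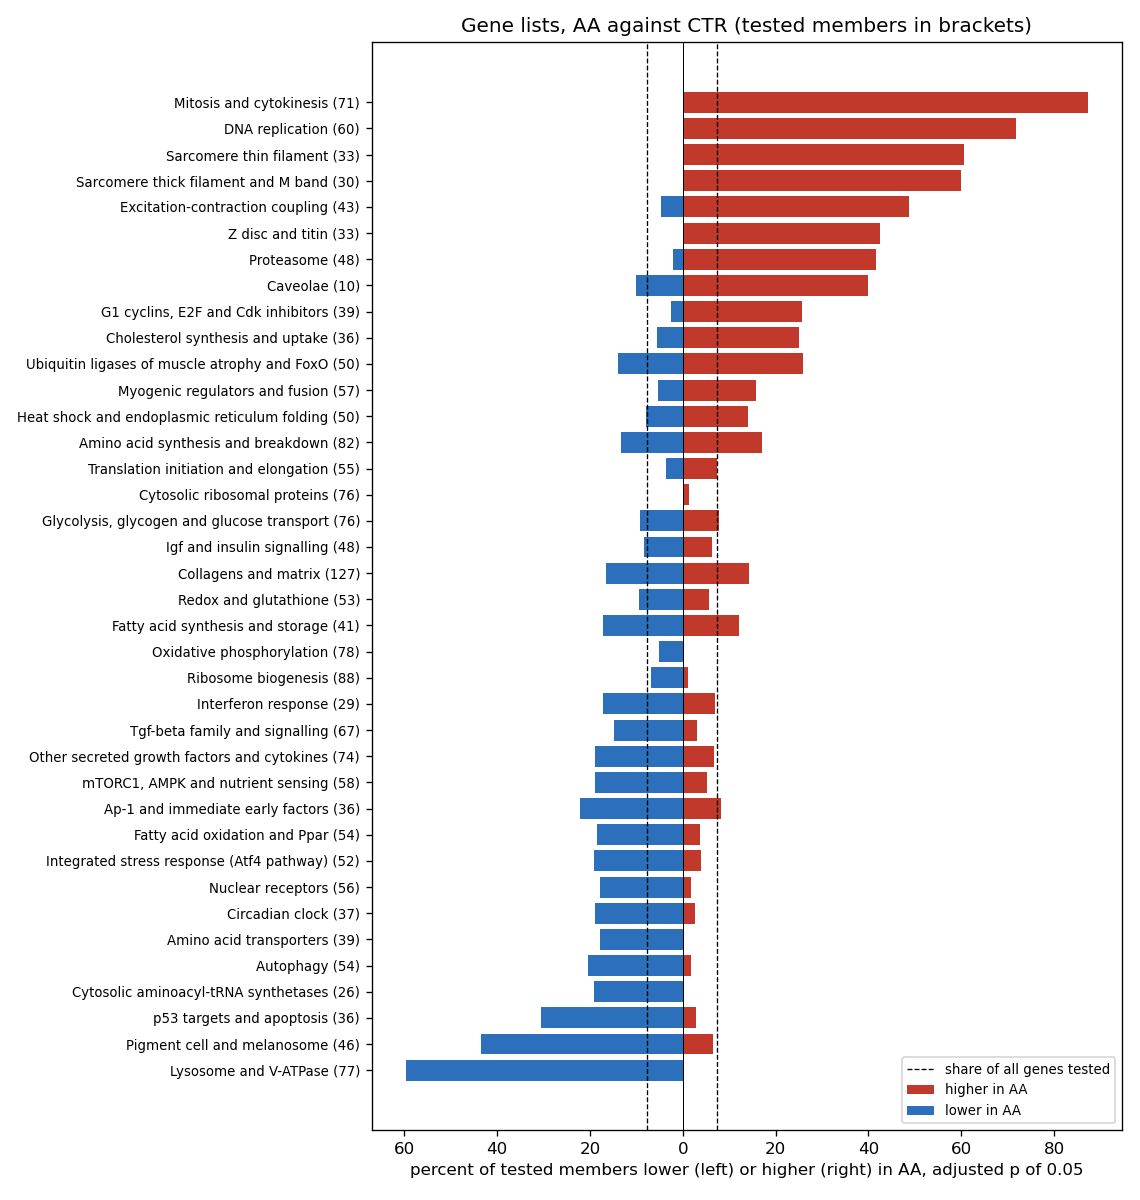
Share of the tested members of each gene list (number tested in brackets) that passed at an adjusted p of 0.05, with members higher in AA drawn to the right and members lower in AA to the left, in percent. The dashed lines are the shares over all genes tested, 7.46% higher and 7.74% lower. Lists of cell division, the sarcomere and the proteasome stood on the right, and those of the lysosome, pigment cells and p53 targets on the left.

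The 12 largest rises among genes with a symbol included genes of muscle and of nucleotide supply beside others. hhatla, an Hhat-like protein of the sarcoplasmic reticulum in mammalian muscle, had 756, 877 and 921 normalized counts in the AA libraries, against 23.7, 33 and 41.9 in the CTR libraries. Its lowest AA library was far above its highest CTR library (log2 fold change 4.70 ± 0.28 (SE), adjusted p = 3.4e-05). tk1, thymidine kinase 1, which makes thymidine monophosphate for DNA synthesis, had 263, 368 and 213 normalized counts in the AA libraries, against 11.4, 12.1 and 23.1 in the CTR libraries (log2 fold change 4.19 ± 0.43 (SE), adjusted p = 2.5e-04). zgc:110540, described as a deoxycytidine kinase-like gene, had a log2 fold change of 4.08, adjusted p = 1.2e-04, cdc6, which licenses replication origins, 4.02, adjusted p = 0.011, and synpo2b, a synaptopodin of the Z disc, 4.61, adjusted p = 0.0035. pask, a PAS domain kinase that has been tied to nutrient sensing in mammals, reached 4.28, adjusted p = 0.0048, and ifitm5, an interferon-induced transmembrane protein-like gene, 5.99, adjusted p = 0.0096. The rises of ccne2, cyclin E2 (4.34, adjusted p = 0.024), and si:ch73-54f23.4 (4.05, adjusted p = 0.023) rested on few counts. So did those of ifitm5, pask, synpo2b and cdc6, which had few counts in CTR. In the CTR libraries ifitm5 had 3.8, 0 and 0 normalized counts, and pask had 7.59, 8.81 and 0. There synpo2b had 7.59, 20.9 and 0, and cdc6 had 18, 0 and 43.3, so the sizes of these rises are uncertain. The call on ccne2 was lost in a fit of AA and CTR alone or without AA replicate 1, AA replicate 3 or CTR replicate 2 (adjusted p = 0.051 to 0.074), and that on si:ch73-54f23.4 in a fit of AA and CTR alone, without AA replicate 2 and CTR replicate 3 together or without AA replicate 2 or CTR replicate 1 (adjusted p = 0.058 to 0.066).

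Among the 12 largest rises, 3 were at 0 in every CTR library. SDS, serine dehydratase, which breaks serine and threonine down to keto acids, had 163, 391 and 178 normalized counts in the AA libraries, against 0, 0 and 0 in the CTR libraries, at least 54-fold higher when the floor of 12 counts over the group is put in place of 0. myh6, an alpha-cardiac myosin heavy chain, had 188, 179 and 179.8 normalized counts in the AA libraries, against 0, 0 and 0 in the CTR libraries and was at least 40.3-fold higher, and kctd16a, a potassium channel tetramerisation domain protein, was at least 26.8-fold higher. In all, 21 genes called higher were at 0 in the 3 CTR libraries and 20 called lower were at 0 in the 3 AA libraries. Among the 20 lower genes the most abundant in CTR was ENSSAUG00010013970, described as RNA binding motif protein 15B, at 99.6, 84.8 and 40.4 normalized counts in CTR libraries. Its call was lost without AA replicate 2 and CTR replicate 3 together or without AA replicate 1, AA replicate 2, AA replicate 3, CTR replicate 1 or CTR replicate 2 (adjusted p = 0.052 to 0.09).

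The largest falls included a hormone receptor, a binding protein of the Igf system and a secreted peptide. ar, an androgen receptor-like gene, had 23.8, 3.1 and 15.9 normalized counts in the AA libraries, against 297, 421 and 305 in the CTR libraries (log2 fold change −4.58 ± 0.58 (SE), adjusted p = 6.5e-04). igfbp6a had 342, 452 and 265 normalized counts in the AA libraries, against 6073, 7467 and 9578 in the CTR libraries (log2 fold change −4.45 ± 0.25 (SE), adjusted p = 3.4e-05). Among abundant genes with a symbol and no overlap between AA and CTR, this was the steepest fall. The table describes igfbp6a as an Igf binding protein 5, so which binding protein it encodes is uncertain. edn1, endothelin 1, a peptide best known for constricting blood vessels, had 56.3, 71.4 and 25.8 normalized counts in the AA libraries, against 701, 894 and 933 in the CTR libraries (log2 fold change −4.05 ± 0.37 (SE), adjusted p = 1.2e-04). The AA libraries were below the CTR libraries without overlap for all 3, which was a condition for naming them here.

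Further falls were those of plvapb, a protein of endothelial diaphragms in mammals (−3.66, adjusted p = 7.8e-05), ccn5, a matricellular protein (−3.62, adjusted p = 2.1e-04), the zinc transporter slc30a8 (−3.60, adjusted p = 7.0e-05), SPAM1, a hyaluronidase-like gene (−3.57, adjusted p = 3.2e-04), f2rl1.2, a protease-activated receptor (−3.40, adjusted p = 4.2e-04), and slc45a2, a melanosomal transporter (−4.26, adjusted p = 9.2e-04). PPFIA3, a liprin (−4.09, adjusted p = 0.014), and fam131a (−3.41, adjusted p = 0.035) fell too, but from fewer counts. slc2a15b, a sugar transporter, fell as well (−3.55, adjusted p = 0.012), with AA libraries spread at 0, 54.8 and 28.8 normalized counts. The call on slc2a15b was lost in a fit of AA and CTR alone (adjusted p = 0.052), that on PPFIA3 without CTR replicate 2 (adjusted p = 0.064), and that on fam131a in a fit of AA and CTR alone or without AA replicate 1, CTR replicate 1, CTR replicate 2, CTR replicate 3, IGF1 replicate 1 or IGF1 replicate 2 (adjusted p = 0.054 to 0.1). Outside the rule by which genes were named, ENSSAUG00010004399, which has no symbol and is described as a Neurl3-like E3 ubiquitin ligase, was chosen after its values were seen. It had 397, 503 and 349 normalized counts in the AA libraries, against 9618, 12131 and 13659 in the CTR libraries (log2 fold change −4.83 ± 0.22 (SE), adjusted p = 9.7e-06). Also chosen in that way, ppp4r4, a regulatory subunit of protein phosphatase 4, had 7.51, 25.9 and 10.6 normalized counts in the AA libraries, against 4101, 4015 and 21.7 in the CTR libraries. CTR replicates 1 and 2 were high and CTR replicate 3 lay among the AA libraries, so its fitted log2 fold change of −7.52, adjusted p = 0.006, rested on 2 libraries.

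The genes that gained the most counts were mainly of the contractile apparatus and the cytoskeleton. ENSSAUG00010004550, described as an alpha actin of skeletal muscle, had 457764, 660889 and 408314 normalized counts in the AA libraries, against 97094, 105339 and 167362 in the CTR libraries (log2 fold change 2.05 ± 0.27 (SE), adjusted p = 8.7e-04). ENSSAUG00010019115, which carries neither symbol nor description, had a log2 fold change of 2.51, adjusted p = 3.1e-04, ACTA1 (ENSSAUG00010015572), described as a cardiac alpha actin, 2.13, adjusted p = 8.8e-04, and ankrd1a, a stretch-responsive protein of the sarcomere, 1.61, adjusted p = 2.1e-04. The alpha tubulins ENSSAUG00010027678 (2.04, adjusted p = 8.2e-04) and ENSSAUG00010008679 (1.29, adjusted p = 0.0058) rose as well. The creatine kinase ckma (1.05, adjusted p = 0.026) and the myosin light chain mylpfb (1.06, adjusted p = 0.035) had no overlap between AA and CTR either. The call on ckma was lost in a fit of AA and CTR alone or without AA replicate 2, CTR replicate 1 or CTR replicate 2 (adjusted p = 0.076 to 0.094), and that on mylpfb in a fit of AA and CTR alone or without AA replicate 1, AA replicate 2, CTR replicate 1, CTR replicate 2, IGF1 replicate 2 or IGF1 replicate 3 (adjusted p = 0.055 to 0.12). Alpha actins and tubulins are near-identical families, so how the counting divided reads among their members is uncertain.

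Among the genes that lost the most counts, fn1b, a fibronectin of the matrix, had 185497, 155542 and 190205 normalized counts in the AA libraries, against 423716, 432264 and 390491 in the CTR libraries (log2 fold change −1.23 ± 0.19 (SE), adjusted p = 0.0021). It was followed by krt18b, a type I keratin (−1.21, adjusted p = 0.0079), pcolcea, an enhancer of procollagen processing (−1.11, adjusted p = 0.012), chac1, a glutathione-degrading target of Atf4 (−1.12, adjusted p = 0.02), lrp1aa, an endocytic receptor (−1.13, adjusted p = 0.007), PRELID3B, a mitochondrial lipid transfer protein-like gene (−1.58, adjusted p = 1.5e-04), dab2, an endocytic adaptor (−1.42, adjusted p = 7.1e-04), and anxa5b, which the table describes as annexin A10 (−1.01, adjusted p = 0.017). The call on pcolcea was lost without AA replicate 1 (adjusted p = 0.057), that on chac1 without AA replicate 1, AA replicate 3 or CTR replicate 3 (adjusted p = 0.058 to 0.1), and that on anxa5b in a fit of AA and CTR alone or without AA replicate 1 (adjusted p = 0.055 to 0.066).

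**Figure D3:**
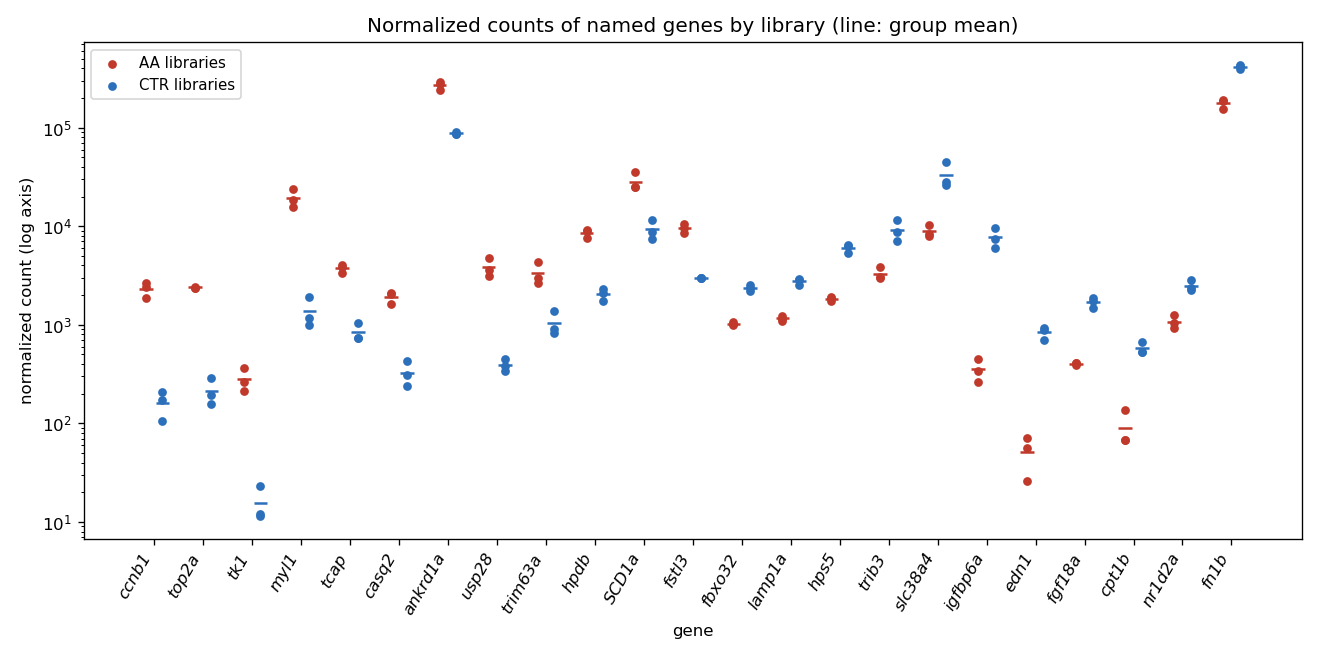
Normalized counts (log axis) of 23 genes named in the text, 1 point per library, with AA libraries in red to the left and CTR libraries in blue to the right of each gene, and a line at each group mean. The 23 genes were picked among those called, nearly all of which had no overlap, so their lack of overlap follows from that choice. Named genes that overlapped, such as myog and asns, are not shown. Those of cell division and muscle were higher in AA and those of the lysosome, secreted factors and the clock lower.

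Genes of cell division had the largest share of higher members of all lists. Of 71 tested genes of mitosis and cytokinesis, 62 (87.3%) were higher in AA and 0 lower, with a median log2 fold change of 2.62. Of 60 genes of DNA replication, 43 (71.7%) were higher and 0 lower, with a median of 1.53. Both counts stood within 1.5 times of these values whichever library was left out.

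ccnb1, cyclin B1, which drives entry into mitosis, had 2627, 2392 and 1871 normalized counts in the AA libraries, against 172, 105 and 206 in the CTR libraries (log2 fold change 3.84 ± 0.28 (SE), adjusted p = 7.0e-05). top2a, the topoisomerase that untangles replicated chromosomes, had 2359, 2441 and 2386 normalized counts in the AA libraries, against 193, 156 and 286 in the CTR libraries (log2 fold change 3.50 ± 0.27 (SE), adjusted p = 7.4e-05). Every AA library of both genes was above every CTR library, and the AA libraries of top2a lay close together. Among the other mitotic genes, the kinases aurkb (3.32) and PLK1 (2.92), the cyclin ccna2 (3.86), its partner cdk1 (1.89), the spindle-pole protein aspm (2.97), the kinesin kif20a (2.72) and the condensin subunit ncapd2 (2.89) rose on the log2 scale. Each of the 8 condensin subunits tested was higher, between 0.86 and 3.04, and so were 4 of 5 A and B cyclins, groups drawn up by symbol after the values were seen. mki67, the symbol of the proliferation antigen Ki-67, rose by 2.26, but the table describes that gene as titin-like, so its identity is uncertain.

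In DNA replication, all 6 genes of the Mcm2 to Mcm7 helicase were higher, from 1.05 to 2.26 on the log2 scale (a group likewise drawn up after the values were seen), with mcm2 at 2.02. PCNA, the sliding clamp, had 6044, 6652 and 3852 normalized counts in the AA libraries, against 1840.1, 1593 and 2462 in the CTR libraries (log2 fold change 1.49 ± 0.23 (SE), adjusted p = 0.0018), and the lowest AA library was still above the highest CTR library. lig1, which joins Okazaki fragments, changed by 2.21, and gmnn, geminin, which blocks a repeat firing of origins, by 3.00. Ribonucleotide reductase, which makes deoxynucleotides, was uneven between gene copies. Both RRM2 genes rose, ENSSAUG00010003210 by 2.94 and ENSSAUG00010003295 by 2.08. Of the copies of the large subunit rrm1, ENSSAUG00010013817 rose by 3.83, and the more abundant ENSSAUG00010013384 changed by 0.51 and did not pass (adjusted p = 0.17). In the same way rpa1 (ENSSAUG00010002185), a subunit of the single-strand binding protein, rose by 2.69, and RPA1 (ENSSAUG00010003579) changed by −0.10 (adjusted p = 0.73).

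The regulators of the G1 phase moved less evenly. Of 39 tested, 10 (25.6%) were higher and 1 lower, with a median of 0.45. The transcription factor mybl2b, which acts late in the cycle, rose by 3.51, and e2f8, a repressor of the E2F family that cycling cells induce, by 3.01. ccnd1, cyclin D1, which links growth factors to the cycle, had 622, 707 and 709 normalized counts in the AA libraries, against 763, 717 and 836 in the CTR libraries and did not pass (adjusted p = 0.51), and neither did CCND1 (0.48, adjusted p = 0.27). The lone lower gene was cdkn1a, the Cdk inhibitor p21, with 1948, 1037 and 1159.7 normalized counts in the AA libraries, against 3992, 2355 and 2415 in the CTR libraries (log2 fold change −1.08 ± 0.29 (SE), adjusted p = 0.029). AA and CTR did not overlap, but the call on cdkn1a was lost in a fit of AA and CTR alone, without AA replicate 2 and CTR replicate 3 together or without AA replicate 2, AA replicate 3, CTR replicate 1 or IGF1 replicate 2 (adjusted p = 0.051 to 0.11). myca, a Myc gene outside that list, rose by 1.13 (adjusted p = 0.0078) and was chosen after its value was seen.

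**Figure D4:**
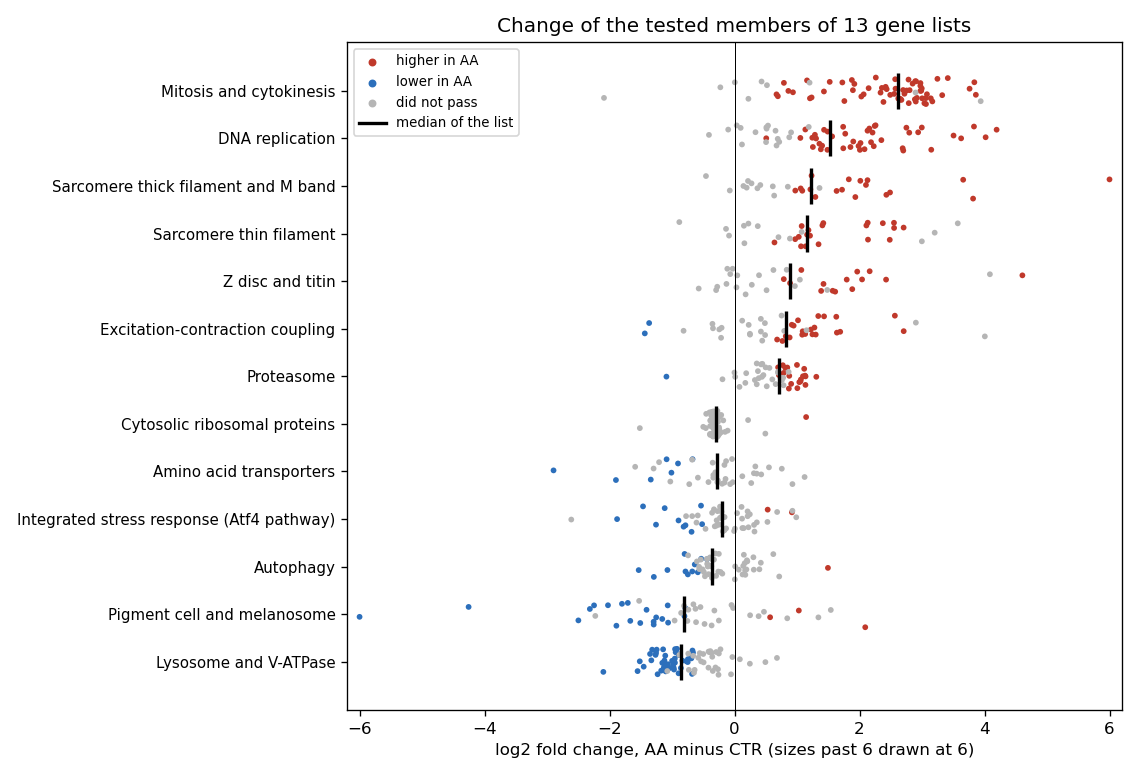
Log2 fold change (AA minus CTR) of each tested member of 13 lists, with red points higher in AA, blue points lower in AA and grey points not past an adjusted p of 0.05. The black bars are the list medians, which lay at 2.62 for mitosis and at −0.86 for the lysosome.

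Many genes of the contractile apparatus rose. Of genes of the thick filament and M band, 18 of 30 (60%) were higher, of the thin filament 20 of 33 (60.6%), and of the Z disc and titin system 14 of 33 (42.4%), and none of the 3 lists had a lower member (1 of the Z disc without AA replicate 2 or CTR replicate 3). Their medians were 1.22, 1.16 and 0.89. The count of higher members stood within 1.5 times of these values whichever library was left out. Sarcomeres are the repeating units of actin and myosin whose shortening moves the muscle.

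myl1, a myosin light chain of fast fibres, had 15501, 23841 and 18331 normalized counts in the AA libraries, against 999, 1162 and 1935 in the CTR libraries (log2 fold change 3.82 ± 0.28 (SE), adjusted p = 7.0e-05). The lowest AA library was several times the highest CTR library. In the M band, which ties thick filaments together, myom1a rose by 1.83 and myom2a by 1.93, and mybpha, a myosin-binding protein, by 2.43. Among thin filament genes, tnnt2c, a troponin T, rose by 2.71 and fhod3a, a formin that helps build actin filaments in cardiac sarcomeres of mammals, by 2.55.

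At the Z disc, which anchors the thin filaments, tcap, the titin cap, had 4042, 3862 and 3357 normalized counts in the AA libraries, against 728, 736 and 1054 in the CTR libraries (log2 fold change 2.16 ± 0.18 (SE), adjusted p = 9.5e-05), without overlap. flnca, a filamin C, rose by 1.88, ldb3b, a LIM protein, by 2.04, and myoz1b, a myozenin, by 1.39. ankrd1a, an abundant transcript in both groups, had 240903, 275216 and 287164 normalized counts in the AA libraries, against 86636, 86184 and 90213 in the CTR libraries (log2 fold change 1.61 ± 0.16 (SE), adjusted p = 2.1e-04), with CTR libraries that differed little from each other.

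Excitation-contraction coupling, the passage from the nerve signal to calcium release, had 21 higher (48.8%) and 2 lower genes among 43, with a median of 0.82. stac3 (ENSSAUG00010009971), which couples the voltage sensor to the calcium channel of the reticulum, had 11748, 13441 and 10519 normalized counts in the AA libraries, against 2584, 1843 and 1037 in the CTR libraries (log2 fold change 2.71 ± 0.29 (SE), adjusted p = 2.8e-04). The other copy, STAC3 (ENSSAUG00010022700), rose by 0.95, but did not pass without CTR replicate 1 or CTR replicate 2 (adjusted p = 0.065 to 0.066). casq2, a calsequestrin that stores calcium in the reticulum, had 2119.9, 1609 and 2048 normalized counts in the AA libraries, against 307, 237 and 433 in the CTR libraries (log2 fold change 2.57 ± 0.25 (SE), adjusted p = 1.6e-04), and every AA library was above every CTR library. The voltage sensor cacna1sb rose by 1.69, the release channel ryr1b by 1.43 and the calcium pump atp2a1 by 1.22. The exceptions were genes of the cell surface. CHRNA1 (ENSSAUG00010024777), an acetylcholine receptor subunit, had 1443, 2001 and 1272 normalized counts in the AA libraries, against 3112, 3776 and 5273 in the CTR libraries (log2 fold change −1.37 ± 0.25 (SE), adjusted p = 0.0044), and SCN4A, the muscle sodium channel, fell by 1.44 on the log2 scale (adjusted p = 0.0068). Another subunit gene, chrna1 (ENSSAUG00010004697), did not pass (0.42, adjusted p = 0.13).

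The transcription factors and fusion genes that set the muscle programme changed far less than the structural genes. Of 57 tested, 9 (15.8%) were higher and 3 lower, with a median of 0.14. myod1 (ENSSAUG00010004893), which commits cells to muscle, had 5943, 6262 and 5456 normalized counts in the AA libraries, against 3566, 3677 and 4083 in the CTR libraries (log2 fold change 0.64 ± 0.13 (SE), adjusted p = 0.0069), and AA was above CTR without overlap. Another myod1 gene, ENSSAUG00010012905, overlapped, with 113, 195 and 131 normalized counts in the AA libraries, against 50.3, 133 and 251 in the CTR libraries. myog, myogenin, which starts terminal differentiation, had 42449, 51039.9 and 36145 normalized counts in the AA libraries, against 27171, 26924 and 40032 in the CTR libraries, and CTR replicate 3 lay between the AA libraries (log2 fold change 0.46 ± 0.20 (SE), adjusted p = 0.17). Without CTR replicate 3 its change was 0.71, adjusted p = 0.031 and it passed. The fusion gene mymk, myomaker, had 15308, 21322 and 14608 normalized counts in the AA libraries, against 12572, 13216 and 18372 in the CTR libraries (log2 fold change 0.21 ± 0.21 (SE), adjusted p = 0.57) and overlapped as well. myf5, of the muscle stem cell, did not pass (0.13, adjusted p = 0.87). cdh15, the adhesion protein M-cadherin, rose by 0.73 (adjusted p = 0.01).

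In the short list of caveolae, the small pits of the muscle membrane, 4 of 10 genes were higher and 1 lower. cavin4a, a muscle-specific coat protein, had 25235, 20771 and 34725 normalized counts in the AA libraries, against 6478, 7175 and 8834 in the CTR libraries (log2 fold change 1.84 ± 0.21 (SE), adjusted p = 3.8e-04). cavin4b rose by 1.93 and CAV3, the muscle caveolin, by 1.03, while cav2, a caveolin of many other cells, had 163, 119 and 245 normalized counts in the AA libraries, against 476, 1026 and 436 in the CTR libraries (log2 fold change −1.88 ± 0.38 (SE), adjusted p = 0.0081). Neither gene overlapped between AA and CTR. The lower count was 2 without CTR replicate 1.

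Genes of protein breakdown moved in different directions by system. Of 48 proteasome genes, 20 (41.7%) were higher and 1 lower, with a median of 0.70, and 9 of 18 core subunits and 11 of 23 regulatory subunits, counted by symbol after the values were seen, were higher. psma2, a core subunit, had 12160, 13373 and 11984 normalized counts in the AA libraries, against 5211, 5568 and 6288 in the CTR libraries (log2 fold change 1.14 ± 0.13 (SE), adjusted p = 4.4e-04), and psmd7 (1.13) and psmd8 (1.31), of the regulatory particle, rose alike, each without overlap. Most changes lay under 1. The count depended on single libraries, and the number of higher proteasome genes was 10 without CTR replicate 1 or CTR replicate 2, 12 without AA replicate 1 or AA replicate 2, 13 without IGF1 replicate 2, 31 without CTR replicate 3.

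Of the 50 tested ubiquitin ligases and FoxO-related genes, 13 (26%) were higher and 7 (14%) lower, with a median of −0.01, and the lower count was 1 without AA replicate 1, 2 without CTR replicate 1 or CTR replicate 2, 3 without IGF1 replicate 2, 4 without AA replicate 2 or IGF1 replicate 3. The pair of ligases best known from wasting muscle parted. trim63a (MuRF1), which acts on thick filament proteins, had 2674, 4378 and 2954 normalized counts in the AA libraries, against 917, 823 and 1393 in the CTR libraries (log2 fold change 1.68 ± 0.27 (SE), adjusted p = 0.0024). fbxo32 (atrogin-1) had 1074, 1012 and 987 normalized counts in the AA libraries, against 2345, 2222 and 2515 in the CTR libraries (log2 fold change −1.21 ± 0.18 (SE), adjusted p = 0.0017). In both genes the groups did not overlap, with AA above CTR in trim63a and below it in fbxo32.

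usp28, a deubiquitinase known in human cells for keeping Myc stable, had 3151, 3562 and 4764 normalized counts in the AA libraries, against 449.8, 341 and 379.7 in the CTR libraries (log2 fold change 3.29 ± 0.20 (SE), adjusted p = 3.4e-05), among the smallest p-values of all genes. asb12b, a substrate receptor of ubiquitin ligases, rose by 2.79. FOXO1 (ENSSAUG00010025060), one of the transcription factors that drive atrophy genes, was low in all libraries and changed by −2.73 (adjusted p = 0.016). The call on FOXO1 was lost without AA replicate 1, CTR replicate 1 or CTR replicate 2 (adjusted p = 0.05 to 0.068).

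The lysosome list had the largest share of lower genes of all lists. Of 77 genes tested, 46 (59.7%) were lower and 0 higher, with a median of −0.86, and the lower count stood within 1.5 times of this value whichever library was left out. lamp1a, a main protein of the lysosomal membrane, had 1105, 1222 and 1152 normalized counts in the AA libraries, against 2542, 2817 and 2893 in the CTR libraries (log2 fold change −1.25 ± 0.13 (SE), adjusted p = 2.6e-04). smpd1, acid sphingomyelinase, had 881, 746 and 821 normalized counts in the AA libraries, against 2190.3, 2269 and 2542 in the CTR libraries (log2 fold change −1.52 ± 0.14 (SE), adjusted p = 1.3e-04). Within each group the libraries of both genes lay close together, and the AA libraries were all below the CTR libraries. asah1b, acid ceramidase, fell by 1.55 on the log2 scale, CTSB, cathepsin B, by 1.12, and hexb, a hexosaminidase subunit, by 1.12.

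The proton pump that acidifies the lysosome, the V-ATPase, had 14 lower and 0 higher genes among 21 subunits and accessory proteins, with changes from −1.33 to −0.06 (counted by symbol after the values were seen). Its catalytic subunit ATP6V1A (ENSSAUG00010014547) had 4657, 3229 and 2822 normalized counts in the AA libraries, against 8794, 8120.1 and 10024 in the CTR libraries (log2 fold change −1.33 ± 0.19 (SE), adjusted p = 0.0014), without overlap. tfeb, a transcription factor known in mammals to switch on lysosomal genes when mTORC1 is off, had 1439, 1366 and 2131 normalized counts in the AA libraries, against 1345, 1541 and 1189.7 in the CTR libraries and did not pass (0.28, adjusted p = 0.45).

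Autophagy, which delivers cell contents to the lysosome, had 11 lower (20.4%) and 1 higher genes among 54, with a median of −0.36. epg5, a tether between autophagosome and lysosome, had 2263, 2127 and 3016 normalized counts in the AA libraries, against 6495, 7969 and 6978 in the CTR libraries (log2 fold change −1.53 ± 0.17 (SE), adjusted p = 4.1e-04). ATG14, a subunit of the lipid kinase that starts autophagosomes, fell by 1.07 on the log2 scale, and ATG4D, a protease that processes Atg8 proteins, by 1.29. ulk1a, the kinase at the head of the pathway, was the one gene that rose, with 2635, 3255 and 3619 normalized counts in the AA libraries, against 1347, 1084 and 943 in the CTR libraries (log2 fold change 1.49 ± 0.18 (SE), adjusted p = 4.7e-04). None of these genes overlapped between AA and CTR. The number of lower autophagy genes was 4 without AA replicate 1, 7 without AA replicate 2, CTR replicate 2, CTR replicate 3 or IGF1 replicate 2.

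Melanosomes, the pigment granules, are relatives of lysosomes and share their sorting machinery. In the list of pigment cell and melanosome genes, 20 of 46 (43.5%) were lower and 3 higher, with a median of −0.80. The lower members included sorting genes and others such as slc45a2, given above. Not every member fell, and 9 of the 46 had a log2 fold change above 0. Among them, rab27a had 2085, 1504 and 2457 normalized counts in the AA libraries, against 682, 541 and 191 in the CTR libraries. kita had 1621, 1896 and 1847 in the AA libraries, against 1118, 1270 and 1227 in the CTR libraries. gpr143, also of this list, had 42.5, 61 and 37.9 normalized counts in the AA libraries, against 168, 181 and 228 in the CTR libraries. hps5, of the Bloc-2 sorting complex, had 1872, 1926 and 1745 normalized counts in the AA libraries, against 5314, 6510 and 6285 in the CTR libraries (log2 fold change −1.71 ± 0.16 (SE), adjusted p = 1.3e-04), without overlap. RAB32, a small GTPase of the same route, fell by 2.25 on the log2 scale, hps1 by 1.80, bloc1s3 by 1.67 and hps4 by 1.41. Of 10 Hps and Bloc-1 genes, 9 were lower, a group drawn up by symbol after the values were seen. Enzymes of melanin synthesis were in the same list. TYR (ENSSAUG00010012219), described as tyrosinase-like, had 538, 489 and 325 normalized counts in the AA libraries, against 1267, 1015 and 1561 in the CTR libraries (log2 fold change −1.51 ± 0.25 (SE), adjusted p = 0.0028), and dct, dopachrome tautomerase, had 0, 0 and 0 normalized counts in the AA libraries, against 11.4, 25.3 and 36.1 in the CTR libraries, at least 6.24-fold lower. tyrp1b, another enzyme of melanin synthesis, did not pass (−0.48, adjusted p = 0.53), nor did mitfa, the main factor of pigment cells (0.39, adjusted p = 0.73). Summed over the whole list, normalized counts ranged from 24492 to 26133 in AA libraries and from 42109 to 44242 in CTR libraries, and the part of pigment cells in these changes was not tested.

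The response to a lack of amino acids that runs through Atf4 was lower in AA only in part. Of 52 genes tested, 10 (19.2%) were lower and 2 higher, with a median of −0.20, and the lower count was 3 without AA replicate 1, 5 without AA replicate 3 or CTR replicate 3, 6 without IGF1 replicate 2 or IGF1 replicate 3, while the higher count was 1 without AA replicate 1, AA replicate 2, AA replicate 3, CTR replicate 1, CTR replicate 2, IGF1 replicate 1, IGF1 replicate 2 or IGF1 replicate 3. trib3, a pseudokinase induced by this pathway that the table describes as tribbles homolog 2-like, had 2977, 3828 and 3063 normalized counts in the AA libraries, against 6999.9, 8766 and 11466 in the CTR libraries (log2 fold change −1.46 ± 0.22 (SE), adjusted p = 0.0019). cebpd, a transcription factor of stress, fell by 1.88 on the log2 scale (adjusted p = 9.1e-04) and nupr1a, a small stress protein, by 1.26 (adjusted p = 0.0056). Atf4 itself has 2 copies. atf4a changed by −0.69, adjusted p = 0.033, and atf4b by −0.82, adjusted p = 0.019. atf4a no longer passed in a fit of AA and CTR alone or without AA replicate 1, AA replicate 3, CTR replicate 3, IGF1 replicate 1, IGF1 replicate 2 or IGF1 replicate 3 (adjusted p = 0.054 to 0.15), and atf4b in a fit of AA and CTR alone or without AA replicate 1, AA replicate 3 or CTR replicate 3 (adjusted p = 0.052 to 0.092).

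asns, asparagine synthetase, one of the best known targets of Atf4, had 14082, 17990.4 and 15053 normalized counts in the AA libraries, against 14631, 18199.5 and 21635 in the CTR libraries. AA and CTR overlapped, and asns did not pass (log2 fold change −0.21 ± 0.20 (SE), adjusted p = 0.56). ddit3, which encodes Chop, had 33072, 31122 and 37116 normalized counts in the AA libraries, against 31665, 32139 and 23851 in the CTR libraries and did not pass either (log2 fold change 0.21 ± 0.16 (SE), adjusted p = 0.47). Neither did sesn2, a sestrin that senses leucine in mammals (−0.59, adjusted p = 0.1).

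Among 39 amino acid transporters, 7 (17.9%) were lower and 0 higher, with a median of −0.27, and the lower count was 3 without CTR replicate 2, 4 without CTR replicate 1. slc38a4, which the table describes as similar to the neutral amino acid transporter Snat2, had 8287, 7996 and 10267 normalized counts in the AA libraries, against 27786, 44962 and 26187 in the CTR libraries (log2 fold change −1.90 ± 0.22 (SE), adjusted p = 4.8e-04). slc6a15, a carrier of branched-chain amino acids and proline, had 1822, 2069.7 and 2171 normalized counts in the AA libraries, against 3953, 6189 and 5215 in the CTR libraries (log2 fold change −1.34 ± 0.19 (SE), adjusted p = 0.0012). AA was below CTR in both without overlap. The related slc6a17 fell by 2.90 on the log2 scale from few counts. By contrast slc7a5, the exchanger of large neutral amino acids (−0.20, adjusted p = 0.57), its partner slc3a2a (−0.16, adjusted p = 0.5) and the cystine carrier slc7a11 (−0.16, adjusted p = 0.72) did not pass.

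The cytosolic aminoacyl-tRNA synthetases, which load amino acids onto transfer RNAs, had 5 lower (19.2%) and 0 higher genes among 26, with a median of −0.17. That count did not hold, since it was 0 without AA replicate 1, 1 without CTR replicate 3, 2 without AA replicate 3 or CTR replicate 2, and the higher count was 2 without CTR replicate 3. aars1, for alanine, had 24199, 26631 and 29004 normalized counts in the AA libraries, against 36422, 46554 and 48628 in the CTR libraries (log2 fold change −0.72 ± 0.17 (SE), adjusted p = 0.018). Its groups did not overlap, and it no longer passed in a fit of AA and CTR alone or without AA replicate 1 or CTR replicate 2 (adjusted p = 0.057 to 0.093).

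Enzymes of amino acid synthesis and breakdown moved both ways, with 14 higher (17.1%) and 11 lower (13.4%) of 82 and a median of 0.04. The number of higher genes was 5 without AA replicate 2, 7 without AA replicate 1 or CTR replicate 1, 8 without CTR replicate 2, and the number of lower genes was 3 without AA replicate 1, 5 without AA replicate 2 or CTR replicate 2, 6 without CTR replicate 3, IGF1 replicate 1, IGF1 replicate 2 or IGF1 replicate 3. The rises included enzymes that break amino acids down. hpdb, which acts in tyrosine breakdown, had 9172, 9023 and 7571 normalized counts in the AA libraries, against 2282, 2090.3 and 1754 in the CTR libraries (log2 fold change 2.07 ± 0.17 (SE), adjusted p = 9.5e-05), and tat, tyrosine aminotransferase, which precedes it, rose by 1.00 (adjusted p = 0.0043). abat, which degrades gamma-aminobutyrate, had 603, 745 and 730.4 normalized counts in the AA libraries, against 151, 164 and 150.2 in the CTR libraries (log2 fold change 2.16 ± 0.20 (SE), adjusted p = 1.3e-04). All 3 were without overlap, as was SDS, given above. By contrast pah, phenylalanine hydroxylase, passed as lower, but no longer did so without AA replicate 1 (−0.89, adjusted p = 0.08). Proline dehydrogenase, which starts proline breakdown, had copies that moved apart. prodhb had 253, 268 and 223 normalized counts in the AA libraries, against 911, 1340.3 and 1208 in the CTR libraries (log2 fold change −2.22 ± 0.24 (SE), adjusted p = 2.8e-04), and prodha had 119, 107 and 80.4 normalized counts in the AA libraries, against 21.8, 37.4 and 5.78 in the CTR libraries (log2 fold change 2.21 ± 0.60 (SE), adjusted p = 0.032). The call on prodha was lost in a fit of AA and CTR alone, without AA replicate 2 and CTR replicate 3 together or without AA replicate 1, AA replicate 2, CTR replicate 1 or IGF1 replicate 1 (adjusted p = 0.05 to 0.096). arg2, arginase 2, fell by 0.94 on the log2 scale, and the glutamine synthetase gene glula did not pass (−0.05, adjusted p = 0.9).

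In the list of mTORC1, AMPK and nutrient sensing, 11 of 58 (19%) were lower and 3 higher, with a median of −0.25, and the lower count was 4 without AA replicate 1, 6 without CTR replicate 3, 7 without CTR replicate 2. The kinase itself, mtor, had 5074, 4875 and 6325 normalized counts in the AA libraries, against 4747, 5682 and 5055 in the CTR libraries, groups that overlapped (log2 fold change 0.07 ± 0.15 (SE), adjusted p = 0.82), and rptor, its scaffold Raptor, did not pass (0.29, adjusted p = 0.55). tsc2, which restrains mTORC1, had 3760.5, 4092 and 3992 normalized counts in the AA libraries, against 6777, 6773 and 7509 in the CTR libraries (log2 fold change −0.83 ± 0.13 (SE), adjusted p = 0.0021), without overlap. Parts of the platform that recruits mTORC1 to the lysosome fell as well, with lamtor2 of the Ragulator down by 0.95 and the Rag GTPase rragcb by 0.93 on the log2 scale. Of 9 Ragulator and Rag genes, 5 were lower and 0 higher (counted by symbol after the values were seen). Outside that platform, wdr59 of the Gator2 complex fell by 0.89 on the log2 scale. Of 8 Gator genes, counted in the same way, 3 were lower and 0 higher. Their median was 0.22, with changes from −0.89 to 0.60. ddit4, an inhibitor of mTORC1 induced by stress, did not pass (0.21, adjusted p = 0.39).

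Few genes of the ribosome itself passed, and nearly all had a log2 fold change under 0. Of 76 cytosolic ribosomal proteins, 1 was higher and 0 were lower, with a median of −0.30 against −0.01 over all genes, and 3 had a log2 fold change above 0. Their summed normalized counts ranged from 6982780 to 13405838 in AA libraries and from 9857920 to 19107162 in CTR libraries, with AA replicate 3 lowest and CTR replicate 3 highest. The higher gene was rpl37 (ENSSAUG00010005537), a minor copy with 272, 298 and 277 normalized counts in the AA libraries, against 141, 102 and 139 in the CTR libraries (log2 fold change 1.15 ± 0.24 (SE), adjusted p = 0.0092). The abundant copy of rpl37, ENSSAUG00010021655, had 107456, 122643 and 58878 normalized counts in the AA libraries, against 105715, 83425 and 169460 in the CTR libraries and did not pass (−0.31, adjusted p = 0.59), with AA replicate 3 lowest and CTR replicate 3 highest. Ribosome biogenesis had 1 higher and 6 lower (6.82%) genes of 88, a share near that of all genes, with a median of −0.17. The lower count was 2 without AA replicate 1, and the higher count 0 without AA replicate 1, AA replicate 2, CTR replicate 2, IGF1 replicate 1, IGF1 replicate 2 or IGF1 replicate 3, 2 without CTR replicate 1. nmd3, the export adaptor of the large subunit, had 10392, 11782 and 8424 normalized counts in the AA libraries, against 20556, 20257 and 31466 in the CTR libraries (log2 fold change −1.24 ± 0.21 (SE), adjusted p = 0.0032), and ddx21, a nucleolar helicase, fell by 0.85 on the log2 scale. Of 55 translation factors, 4 were higher and 2 lower, also near the shares of all genes. The higher count was 1 without AA replicate 3, 2 without AA replicate 1, and the lower count 1 without AA replicate 1. eif4eb, a cap-binding protein, rose by 1.16, while MKNK1, a kinase that phosphorylates it, fell by 1.13 on the log2 scale.

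In the Igf system, 3 of 48 genes were higher and 4 lower, shares near those of all genes, and the lower count was 2 without AA replicate 1, AA replicate 2, CTR replicate 1, CTR replicate 2 or IGF1 replicate 2. The ligand igf2b had 2732, 1630.1 and 3324 normalized counts in the AA libraries, against 4022, 4321 and 1836 in the CTR libraries with wide overlap (log2 fold change −0.41 ± 0.34 (SE), adjusted p = 0.5), and igf1 was near 0 in both groups (5.01, 0 and 9.1 normalized counts in the AA libraries, against 5.69, 20.9 and 0 in the CTR libraries). The receptors igf1ra (−0.08, adjusted p = 0.95) and igf1rb (0.17, adjusted p = 0.9) did not pass. The insulin receptor gene insra passed as lower (−0.48, adjusted p = 0.028), but no longer did so in a fit of AA and CTR alone, without AA replicate 2 and CTR replicate 3 together, without the filter on low counts or without AA replicate 1, AA replicate 2, AA replicate 3, CTR replicate 1, CTR replicate 2, IGF1 replicate 1 or IGF1 replicate 2 (adjusted p = 0.052 to 0.096). The kinase akt1, which acts downstream of both receptors, passed as higher (0.66, adjusted p = 0.017), but not in a fit of AA and CTR alone or without CTR replicate 1 (adjusted p = 0.054 to 0.057). Besides igfbp6a, given above, igfbp6b had 1448, 1448 and 1461 normalized counts in the AA libraries, against 3418, 4792 and 3507 in the CTR libraries (log2 fold change −1.43 ± 0.16 (SE), adjusted p = 3.5e-04), while igfbp2a had 208, 154 and 177 normalized counts in the AA libraries, against 28.5, 16.5 and 21.7 in the CTR libraries (log2 fold change 3.00 ± 0.45 (SE), adjusted p = 0.0016). The AA and CTR libraries of both genes did not overlap. igfbp3 (0.22, adjusted p = 0.29) and igfbp5a (0.90, adjusted p = 0.15) did not pass. GRB14, an adaptor that inhibits the insulin receptor in mammals, rose by 1.45 (adjusted p = 0.0013).

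Secreted factors outside the Igf system were more often lower. Among 74 growth factors and cytokines, 14 (18.9%) were lower and 5 higher, with a median of −0.18, and the lower count was 7 without AA replicate 1, 9 without CTR replicate 2. fgf18a, a fibroblast growth factor, had 407, 405 and 391 normalized counts in the AA libraries, against 1739, 1469 and 1874 in the CTR libraries (log2 fold change −2.08 ± 0.18 (SE), adjusted p = 1.1e-04), with AA libraries nearly equal. wnt4, a Wnt ligand, had 260.3, 427 and 273 normalized counts in the AA libraries, against 727, 950.4 and 1325 in the CTR libraries (log2 fold change −1.64 ± 0.27 (SE), adjusted p = 0.0028). hgfb, a hepatocyte growth factor, which wakes muscle stem cells in mammals, moved the other way, with 706, 464 and 617 normalized counts in the AA libraries, against 228, 227 and 222 in the CTR libraries (log2 fold change 1.40 ± 0.21 (SE), adjusted p = 0.0018), and angpt2b, an angiopoietin, rose by 1.39. None of these 4 genes overlapped between groups.

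The Tgf-beta family had 10 lower (14.9%) and 2 higher genes of 67, with a median of −0.34, and the lower count was 6 without CTR replicate 1 or CTR replicate 2. Among ligands, tgfb3 had 2294, 2549 and 2265 normalized counts in the AA libraries, against 5983, 8925 and 7139 in the CTR libraries (log2 fold change −1.63 ± 0.18 (SE), adjusted p = 3.0e-04), GDF10 fell by 2.05 on the log2 scale and inhbb, an activin subunit, by 1.46. myostatin, mstnb, which limits muscle growth, was near 0 in both groups (27.5, 0 and 0 normalized counts in the AA libraries, against 0, 13.2 and 0 in the CTR libraries). Among the secreted inhibitors, both genes named chrd, chordin, a Bmp antagonist, fell by similar amounts, ENSSAUG00010023633 by 1.83 and ENSSAUG00010023705 by 1.80 on the log2 scale, and fstl3, an antagonist of activin and myostatin, had 8617, 10577 and 9537 normalized counts in the AA libraries, against 3013, 2987 and 3009 in the CTR libraries (log2 fold change 1.67 ± 0.13 (SE), adjusted p = 7.8e-05). The CTR libraries of fstl3 were nearly equal, and AA was above them all.

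Collagens and other matrix genes split, with 18 higher (14.2%) and 21 lower (16.5%) of 127 and a median of 0.03. The higher count was 5 without CTR replicate 2, 8 without AA replicate 1 or AA replicate 3, 11 without IGF1 replicate 2. thbs1b, a thrombospondin, had 496, 156 and 389.8 normalized counts in the AA libraries, against 2036, 4319 and 1489 in the CTR libraries (log2 fold change −2.91 ± 0.48 (SE), adjusted p = 0.0027), and timp2b, an inhibitor of metalloproteinases, fell too (adjusted p = 0.0014). ogna, osteoglycin, a small proteoglycan, had 13126, 10619.7 and 15521 normalized counts in the AA libraries, against 4953, 3611 and 1868 in the CTR libraries (log2 fold change 1.91 ± 0.31 (SE), adjusted p = 0.0025). No overlap between groups was seen in these genes. The main fibrillar collagen gene col1a1a had 267729, 228773 and 253298 normalized counts in the AA libraries, against 184118, 147788 and 187257 in the CTR libraries and did not pass, although its groups did not overlap (log2 fold change 0.53 ± 0.17 (SE), adjusted p = 0.067). Without CTR replicate 3 it passed (0.62, adjusted p = 0.043).

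Lipid genes changed in a few places. In the cholesterol list, 9 of 36 (25%) were higher and 2 lower, with a median of 0.10, and the higher count was 4 without CTR replicate 1, 5 without AA replicate 2 or CTR replicate 2. The synthesis enzymes mvda (1.44), lss (1.58) and nsdhl (0.98) rose, and ABCA1, which exports cholesterol, fell by 0.90 on the log2 scale. In fatty acid synthesis and storage, 5 were higher (12.2%) and 7 lower (17.1%) of 41. The higher count was 3 without AA replicate 3, CTR replicate 1 or CTR replicate 2, and the lower count 4 without CTR replicate 3. SCD1a, a desaturase, had 24919, 25141 and 35113 normalized counts in the AA libraries, against 8793, 11662 and 7482 in the CTR libraries (log2 fold change 1.61 ± 0.20 (SE), adjusted p = 6.8e-04), and ACLY (ENSSAUG00010021668), which makes cytosolic acetyl-CoA, rose by 1.55. elovl7a, an elongase, had 126, 94.1 and 111 normalized counts in the AA libraries, against 801, 941 and 1021 in the CTR libraries (log2 fold change −3.06 ± 0.28 (SE), adjusted p = 1.2e-04), and plin2, which coats lipid droplets, had 3318, 3562 and 1977 normalized counts in the AA libraries, against 8189.9, 9759 and 14074 in the CTR libraries (log2 fold change −1.85 ± 0.28 (SE), adjusted p = 0.0016). The groups did not overlap in any of these. Another ACLY gene, ENSSAUG00010023332, did not pass, but did so with DESeq2 (0.47, adjusted p = 0.0054). fasn, fatty acid synthase, did not pass (0.99, adjusted p = 0.09), but did so without AA replicate 2 (1.30, adjusted p = 0.017).

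In fatty acid oxidation, 10 of 54 (18.5%) were lower and 2 higher, with a median of −0.11, and the lower count was 6 without AA replicate 1 or CTR replicate 2, while the higher count was 1 without AA replicate 2, CTR replicate 1, CTR replicate 2 or IGF1 replicate 3. cpt1b, the muscle form of the transferase that admits fatty acids to mitochondria, had 67.6, 137 and 67.5 normalized counts in the AA libraries, against 531, 531 and 667 in the CTR libraries (log2 fold change −2.67 ± 0.32 (SE), adjusted p = 4.8e-04). cpt1ab, the form of other tissues, had 4613, 4438 and 5274 normalized counts in the AA libraries, against 9712, 11666 and 9413 in the CTR libraries (log2 fold change −1.10 ± 0.14 (SE), adjusted p = 6.7e-04). AA was below CTR in both without overlap. pdk2a, a pyruvate dehydrogenase kinase, fell by 1.11 on the log2 scale, and acadvl, of the first step of oxidation, by 0.82.

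Glycolysis and glycogen had 6 higher and 7 lower genes of 76, near the shares of all genes. The higher count was 3 without AA replicate 1, and the lower count 2 without AA replicate 1, 3 without CTR replicate 3, 4 without AA replicate 3, CTR replicate 2 or IGF1 replicate 2. PGM1 (ENSSAUG00010009231), which converts glucose phosphates, had 1445, 2187 and 1422 normalized counts in the AA libraries, against 457, 470.3 and 523 in the CTR libraries (log2 fold change 1.80 ± 0.21 (SE), adjusted p = 4.4e-04), pygmb, muscle glycogen phosphorylase, rose by 1.13, and tpi1a, a triosephosphate isomerase, fell by 1.37 on the log2 scale. Oxidative phosphorylation had 0 higher and 4 lower (5.13%) genes of 78, shares below those of all genes. The lower count was 2 without AA replicate 1, and the higher count 2 without CTR replicate 3. Of 5 genes of succinate dehydrogenase, which joins the citrate cycle to the respiratory chain, 3 were lower (counted by symbol after the values were seen). SDHA had 14372, 16509 and 14388 normalized counts in the AA libraries, against 24591, 30924 and 31165 in the CTR libraries (log2 fold change −0.94 ± 0.16 (SE), adjusted p = 0.0034), and SDHB (ENSSAUG00010011676) fell by 1.47 on the log2 scale. SDHD fell by 0.73 on that scale, and it no longer passed in a fit of AA and CTR alone or without AA replicate 1 (adjusted p = 0.05 to 0.094). SDHB (ENSSAUG00010000613, −0.45, adjusted p = 0.21) and SDHC (−0.28, adjusted p = 0.57) did not pass.

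Heat shock and folding genes of the endoplasmic reticulum had 7 higher (14%) and 4 lower (8%) members of 50. Their higher count was 2 without CTR replicate 2, 4 without AA replicate 1 or AA replicate 3, and their lower count 0 without AA replicate 1, 2 without AA replicate 3, CTR replicate 2, CTR replicate 3 or IGF1 replicate 2. creld2, a folding factor, had 1201, 1284 and 839.6 normalized counts in the AA libraries, against 307, 303 and 443 in the CTR libraries (log2 fold change 1.66 ± 0.24 (SE), adjusted p = 0.0014), without overlap, and the disulfide isomerase pdia4 rose by 1.02. p53 targets and apoptosis genes had 11 lower (30.6%) and 1 higher of 36, with a median of −0.36. This count depended on each library, being 3 without AA replicate 1 or IGF1 replicate 2, 4 without CTR replicate 1, 5 without AA replicate 2, AA replicate 3, CTR replicate 3 or IGF1 replicate 3, 6 without IGF1 replicate 1, 7 without CTR replicate 2, while the higher count was 0 without AA replicate 1 or CTR replicate 2. phlda3, a target of p53 that restrains Akt in mammals, fell by 1.52 on the log2 scale (adjusted p = 0.0052), and cdkn1a is given above. In the redox list, 3 were higher (5.66%) and 5 lower (9.43%) of 53, near the shares of all genes. The lower count was 2 without AA replicate 1, AA replicate 3 or CTR replicate 3, 3 without CTR replicate 2 or IGF1 replicate 2. Its heme oxygenase genes, both described as heme oxygenase-like, went opposite ways, HMOX1 with 181, 165 and 174 normalized counts in the AA libraries, against 754, 481 and 749 in the CTR libraries (log2 fold change −1.93 ± 0.22 (SE), adjusted p = 3.8e-04), and hmox1a with 745, 963 and 449.8 normalized counts in the AA libraries, against 74, 71.6 and 108 in the CTR libraries (log2 fold change 3.09 ± 0.46 (SE), adjusted p = 0.0015). Neither overlapped. gpx7, a glutathione peroxidase, rose by 1.74, and gclc, of glutathione synthesis, fell by 0.90 on the log2 scale.

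In the circadian clock list 7 of 37 (18.9%) were lower and 1 higher, and without CTR replicate 1 only 4 were lower and the higher count was 0 without CTR replicate 1 or CTR replicate 2. All 5 Rev-erb genes tested, which encode repressors that respond to heme, were among the lower ones, a group singled out after the values were seen. nr1d2a had 1258, 1033 and 925 normalized counts in the AA libraries, against 2259.6, 2363 and 2880.3 in the CTR libraries (log2 fold change −1.22 ± 0.17 (SE), adjusted p = 0.001), without overlap, nr1d1 fell by 1.65, nr1d2b by 0.97 and nr1d4b by 0.83 on the log2 scale, and nr1d4a by 1.15. The call on nr1d4a was lost in a fit of AA and CTR alone or without AA replicate 1, CTR replicate 1 or CTR replicate 2 (adjusted p = 0.055 to 0.088). The clock genes per1b (0.18, adjusted p = 0.47) and per2 (ENSSAUG00010027189, −0.69, adjusted p = 0.16) did not pass. Of other nuclear receptors, with 10 lower (17.9%) and 1 higher of 56, rarab, a retinoic acid receptor, fell by 1.23 on the log2 scale, and ar is given above. esrrgb, an estrogen-related receptor active in oxidative muscle of mammals, was the one that rose, with 278, 240 and 320.1 normalized counts in the AA libraries, against 54.1, 49.6 and 44.8 in the CTR libraries (log2 fold change 2.49 ± 0.34 (SE), adjusted p = 0.001). The lower count of nuclear receptors was 6 without AA replicate 1 or CTR replicate 1.

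The Ap-1 and immediate early genes, which answer growth factors and stress within minutes, had 8 lower (22.2%) and 3 higher members of 36, with a median of −0.28, and the lower count was 5 without AA replicate 1 or CTR replicate 1. JUND (ENSSAUG00010009792) had 219, 269 and 283 normalized counts in the AA libraries, against 865, 1489 and 1286 in the CTR libraries (log2 fold change −2.24 ± 0.29 (SE), adjusted p = 8.2e-04), and the other copy, jund (ENSSAUG00010006938), fell by 1.29 on the log2 scale. fosl1a, a partner of Jun, fell by 0.98 and dusp1, a phosphatase that ends kinase signalling, by 1.00, while egr1 had 4998, 3945 and 4348 normalized counts in the AA libraries, against 2879, 2229 and 2183 in the CTR libraries (log2 fold change 0.87 ± 0.16 (SE), adjusted p = 0.0044), with AA above CTR in every library. In the interferon list of 29, 5 were lower (17.2%) and 2 higher (6.9%), with a median of 0.20. Among the lower ones, usp18, which removes Isg15, was down by 1.07, and isg20, described as an apoptosis-enhancing nuclease, by 0.95 on the log2 scale. Among the higher ones, Mx1, described as an interferon-induced GTPase, rose by 1.67 (adjusted p = 0.02), and its call was lost in a fit of AA and CTR alone or without AA replicate 1, AA replicate 3, CTR replicate 1 or CTR replicate 2 (adjusted p = 0.057 to 0.072). The lower count of the interferon list was 3 without AA replicate 1, CTR replicate 3, IGF1 replicate 1, IGF1 replicate 2 or IGF1 replicate 3, and the higher count was 0 without AA replicate 1, CTR replicate 1 or CTR replicate 2, 1 without AA replicate 2, AA replicate 3, IGF1 replicate 1, IGF1 replicate 2 or IGF1 replicate 3, 6 without CTR replicate 3.

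Teleost fishes kept many genes in duplicate after a genome duplication at the base of their lineage, and such copies usually carry symbols that end in a and b. The 998 pairs of tested genes whose symbols differ only in that letter were compared within each library, so that depth and scaling cancel. Some of these pairs, such as snrpa and snrpb or top2a and top2b, are separate genes in vertebrates generally. In 192 pairs (19.2%) the 2 genes changed by unequal amounts between AA and CTR. Among these, 1 gene passed and the other did not in 115 pairs, both passed in opposite directions in 15, both passed in the same direction in 6 and neither passed in 56. Over all 998 pairs, both genes were higher in 21 and both were lower in 18.

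The clearest difference was in phactr4, a regulator of actin and protein phosphatase 1. phactr4a had 2635, 2523 and 3085 normalized counts in the AA libraries, against 2956, 3555 and 2039 in the CTR libraries, while phactr4b had 293, 252 and 447 normalized counts in the AA libraries, against 2295, 3206 and 1838 in the CTR libraries. The change of copy a minus that of copy b was 2.86 ± 0.18 (SE), adjusted p = 1.0e-05 in limma on log2 CPM (counts scaled by library size). For hhatl that difference was 4.57 ± 0.38 (SE), adjusted p = 5.1e-05, since hhatlb had 370.4, 478 and 322 normalized counts in the AA libraries, against 321, 361 and 424 in the CTR libraries and did not share the rise of hhatla. In plvap, plvapa, which the table describes as keratin-like, did not pass (0.21, adjusted p = 0.62) and plvapb fell, a difference of 3.84 ± 0.25 (SE), adjusted p = 1.0e-05.

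Further pairs differed inside the groups described above. In asb12 the copies moved in opposite directions, asb12a with 422, 486 and 430 normalized counts in the AA libraries, against 721, 641 and 944 in the CTR libraries, and asb12b with 1434, 1649.8 and 2231 normalized counts in the AA libraries, against 249, 263 and 258 in the CTR libraries (difference −3.52 ± 0.29 (SE), adjusted p = 5.1e-05). On its own asb12a no longer passed in a fit of AA and CTR alone, without AA replicate 2 and CTR replicate 3 together or without AA replicate 1, AA replicate 3, CTR replicate 1, CTR replicate 3 or IGF1 replicate 2 (adjusted p = 0.051 to 0.11). In igfbp6 both fell, igfbp6a the more (difference −3.04 ± 0.26 (SE), adjusted p = 5.1e-05). In ldb3, ldb3b rose and ldb3a did not pass (0.51, adjusted p = 0.14), a difference of −1.53 ± 0.14 (SE), adjusted p = 6.4e-05. In mdh1a, the cytosolic malate dehydrogenase, mdh1ab rose by 0.99 and mdh1aa did not pass (−0.52, adjusted p = 0.24), a difference of −1.52 ± 0.14 (SE), adjusted p = 6.4e-05. In gpi, the glucose phosphate isomerase, gpib had a log2 fold change of −1.02, adjusted p = 0.021 and gpia one of 0.19, adjusted p = 0.69, a difference of 1.17 ± 0.11 (SE), adjusted p = 6.4e-05. The call on gpib alone was lost without AA replicate 1, AA replicate 3 or CTR replicate 3 (adjusted p = 0.056 to 0.084). Besides asb12, the 15 opposite pairs included prodh, given above, and fn1. There fn1a had 9901, 4745 and 13467 normalized counts in the AA libraries, against 4563, 3963 and 2689.7 in the CTR libraries (log2 fold change 1.33 ± 0.35 (SE), adjusted p = 0.028), against the fall of the more abundant fn1b. The call on fn1a was lost in a fit of AA and CTR alone or without AA replicate 1, AA replicate 3, CTR replicate 2 or CTR replicate 3 (adjusted p = 0.063 to 0.088).

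**Figure D5:**
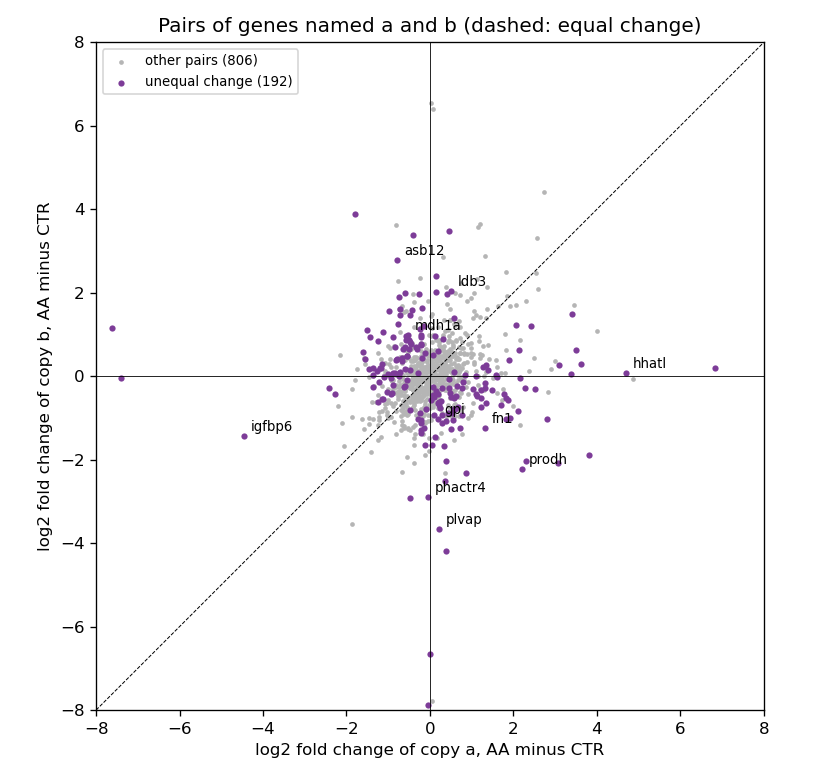
Log2 fold change, AA minus CTR, of gene a (horizontal) against gene b (vertical) in each of 998 pairs whose symbols differ only by a final a or b. Purple points are the 192 pairs with unequal change at an adjusted p of 0.05, grey points the other 806, and the dashed line is equal change. Many purple points lie near an axis, where 1 gene changed and the other changed little.

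Long non-coding RNAs (lncRNAs), transcripts without a protein product as listed by the authors, were tested together with all other genes. Of 401 tested, 15 (3.74%) passed as higher and 18 (4.49%) as lower, beside 7.46% and 7.74% of all genes, with a median log2 fold change of −0.03. With the fold limit, 14 (3.49%) were called higher and 15 (3.74%) lower, beside 4.83% and 3.79% of all genes. Of the 111 with a mean of at least 1 FPKM, 7 (6.31%) were called higher and 10 (9.01%) lower by the same criteria. FPKM, fragments scaled by transcript length and sequencing depth, is the authors' unit for these transcripts. ENSSAUG00010016143 had 0.893, 1.77 and 0.911 FPKM in AA libraries, against 18.5, 16.3 and 21.4 FPKM in CTR libraries (log2 fold change −4.06 ± 0.40 (SE), adjusted p = 2.1e-04 from counts). ENSSAUG00010016074 had 0.349, 0.0667 and 0.466 FPKM in AA libraries, against 3.6, 5.94 and 3.22 FPKM in CTR libraries (log2 fold change −3.94 ± 0.55 (SE), adjusted p = 0.0012). In both, all AA libraries were far below all CTR libraries. ENSSAUG00010015941 (−1.59) and ENSSAUG00010012549 (−1.47) were also lower. ENSSAUG00010015504 had 13.2, 14.1 and 17.3 FPKM in AA libraries, against 6.9, 7.11 and 5.22 FPKM in CTR libraries (log2 fold change 1.11 ± 0.16 (SE), adjusted p = 0.0014), and ENSSAUG00010001802 rose by 1.04. The groups of these 2 did not overlap either.

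Markers of other cell types were counted because a primary culture can hold more than muscle cells. The muscle markers were abundant in every library, with summed normalized counts of 1271897 to 1933050 in AA libraries and 691121 to 1154390 in CTR libraries, and 6 of 11 were higher. Fibroblast markers were abundant as well, 903540 to 995913 in AA libraries and 776166 to 916330 in CTR libraries, with 1 of 18 higher and 5 lower. The lower count was 3 without AA replicate 1 or CTR replicate 2. The higher count was 3 without CTR replicate 3. It was 0 without AA replicate 1, AA replicate 3, CTR replicate 1, CTR replicate 2 or any IGF1 library. Matrix genes such as col1a1a and col1a2 made up much of these sums. Single members went both ways, and 12 of the 18 did not pass. The median log2 fold change of the list was −0.19, and 6 members had one above 0. fap had 7824, 8999 and 6618 normalized counts in the AA libraries, against 15755, 17875 and 18054 in the CTR libraries. twist1b had 469, 550 and 481 against 1004, 1110 and 1302. postna lay the other way, with 3300, 2775 and 3248 against 2356, 2126 and 2349. Leukocyte markers summed to 24094 to 34013 in AA libraries and 17715 to 27812 in CTR libraries, with 2 of 21 higher and 1 lower. The leukocyte higher count was 4 without CTR replicate 3. It was 1 without AA replicate 1, AA replicate 2, CTR replicate 1, CTR replicate 2, IGF1 replicate 2 or IGF1 replicate 3. The leukocyte lower count was 0 without AA replicate 1, AA replicate 2, any CTR library or any IGF1 library. Endothelial markers summed to 6148 to 7393 in AA libraries and 7721 to 9776 in CTR libraries, with 2 of 22 higher and 1 lower. The endothelial sums did not overlap, but the lower sums of AA came from plvapb alone, and the other markers of that list, summed after this was seen, gave 5863 to 7113 in AA libraries and 4609.9 to 5235 in CTR libraries. Adipocyte markers summed to 10033 to 14926 in AA libraries and 8007 to 11084 in CTR libraries, with 1 of 8 higher and 1 lower. Their fabp11b was at 0 in all of them. The adipocyte lower count was 0 without AA replicate 2, AA replicate 3, CTR replicate 1, CTR replicate 3 or IGF1 replicate 2. Neural markers summed to 4841 to 6655 in AA libraries and 4912 to 5362 in CTR libraries, with 2 of 19 higher and 0 lower. The neural higher count was 0 without CTR replicate 1 or CTR replicate 2, and 1 without any other single library. Of this neural and glial list, elavl3, elavl4, NEFL, olig1, olig2 and syt1b were at 0 in all. By contrast erbb3b had 1554, 1718 and 2096 normalized counts in AA libraries, against 1919, 1610 and 1789 in CTR libraries. The part of these cells in the changes of secreted factors and matrix genes was not tested.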

How the data were processed

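Messenger RNA was selected by poly(A) and sequenced as stranded libraries, 3 each from AA, CTR and Igf-1 cultures. The authors trimmed the reads, aligned them with HISAT2 (version 2.2.1) to the sea bream genome of Ensembl and assembled and quantified transcripts with StringTie (version 2.2.0). The genome build and the strand setting of the counting are not given in the sources used here. The deposited count table is labelled as normalized, but its columns add up to different totals, so its values were treated as estimated counts and rounded to whole numbers. Small values cluster at multiples of 4, from which about 4 counts per sequenced pair were inferred. The deposited FPKM values, in which the authors put 0.0001 in place of 0, were used for lncRNAs. Columns of the authors' fold changes, p-values and q-values were not used, and 0 value columns belonged to no sample.

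Rows with low counts were removed (edgeR filterByExpr by group), which left 17687 of 27159 genes. Libraries were scaled by TMM (factors 0.791 to 1.21), and AA was compared with CTR by the quasi-likelihood test of edgeR 4.0.16 in R 4.3.3 in a fit of all 9 libraries (common dispersion 0.115), with Benjamini-Hochberg adjustment over all genes. Totals per library lay between 48725967 and 67887824, so rare transcripts carry the widest errors. SE values were derived from the fold change and its F statistic. Normalized counts are counts divided by the TMM-scaled library size and multiplied by the mean of those sizes, and a group at 0 was given a floor of 12 counts over the group (3 pairs). Pairs of genes were compared with limma 3.58.1 on the within-library difference of log2 CPM (prior count 2). DESeq2 1.42.0 was an alternative. The fits were also run on simulated counts with independent libraries, which could not show the effect of outlying libraries or shared cultures.

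The 43 gene lists, the members and the alternatives were chosen with earlier results of these data known, and lists are described by counts and medians without a set test. Genes were named by a rule. It took the 12 largest rises and 12 largest falls among called genes with a symbol, a mean of at least 50 normalized counts in the higher group and no overlap, the 8 largest gains and 8 largest losses of counts, up to 5 members per list with the smallest adjusted p together with members known to define the list, up to 5 genes at 0 in all libraries of 1 group, 8 pairs, up to 6 lncRNAs of at least 1 FPKM and the genes that the study measured by qPCR. The plan had assumed plain counts and marker sums in FPKM, and estimated counts and sums of normalized counts were used instead. No sequence is printed, since no sequence table was used here.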

Additional observations from a re-analysis of the deposited data

How the results depend on the processing

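With the adjusted p alone in place of the joint criterion, 1319 genes were higher and 1369 lower. Every other alternative gave between 699 and 1097 higher and between 525 and 761 lower genes, with DESeq2 at the top (1097 and 761). RLE size factors gave 897 and 631, no filter on low counts 851 and 668, counts divided by 4 910 and 682, a fit of AA and CTR alone 701 and 532, and leaving out AA replicate 2 and CTR replicate 3 together 874 and 653. Leaving out 1 library at a time gave 699 to 942 higher and 525 to 698 lower genes and 131 to 192 pairs with unequal change. With a prior count of 8 there were 215 such pairs, and 177 without AA replicate 2 and CTR replicate 3. All called genes that an alternative could fit kept their sign in it. With a replicate block by library number there were 723 higher genes, 560 lower genes and 166 pairs. Deviations of AA and CTR libraries with the same number from their group means correlated at 0.13, −0.25 and −0.39, and AA replicates 2 and 3 each correlated better with a CTR library of another number, so the numbers were not taken to pair libraries and the block is a description. The lost calls listed beside single genes leave out the block. With it, further named genes no longer passed, among them PPFIA3 (adjusted p = 0.062) and FOXO1 (ENSSAUG00010025060, adjusted p = 0.061).

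The test on the deposited FPKM with limma was not run, because the CTR values in FPKM used here cover only genes selected by the authors and lncRNAs. Counts of list members with small changes, such as those of transfer RNA synthetases, p53 targets and Atf4 targets, depended on single libraries as stated beside them. Genes with few counts had the widest errors, and shared reads among near-identical copies limit their separate values.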
